A study of Homo sapiens with 24 samples.

Results

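The 68 array probes described here fell with retinoic acid (RA) in SH-SY5Y cells, an established human neuroblastoma line, both in scrambled control cultures and in cultures labelled OE, read here as overexpression of miR-125b. They were chosen by a rule on the authors' normalized intensities, out of 20589 probes on the array. Values under 50 were raised to 50 and put on the log2 scale, and the mean of each group was taken. A probe was a member when its highest group mean was at least 7, its RA difference on day 2 was -0.7 or lower in scrambled and in OE arrays, and its OE minus scrambled difference without RA on day 2 was smaller than 0.4 in size. Of 9069 probes bright enough, 142 were lowered by RA in both backgrounds. OE without RA lay 0.4 or more below scrambled at 36 of these and 0.4 or more above at 38, which left the 68.

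The study put 24 arrays in 8 groups of 3. Cultures without RA were scrambled or OE, each on day 2 and on day 4. Cultures with RA were scrambled, KD (knockdown of miR-125b), OE, or OE and KD together, all on day 2. The source names write DP, which they do not explain, where the sample titles write OE, and the growth protocol describes other cells and reagents, so the RA dose, the way the reagents were delivered and whether the 3 arrays of a group came from separate cultures cannot be stated. The p-values therefore measure the spread between these arrays, which may be technical. No group had RA on day 4 and no group had KD without RA. miR-125b itself was not among the measurements analysed here.

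Retinoic acid is a ligand of nuclear receptors, the RARs, which pair with RXRs on DNA and recruit activators of transcription once the ligand is bound. Neuroblastoma cells given RA are known to slow their division and to extend neurites, so the transcripts they lose are of as much interest as those they gain. miR-125b is a microRNA abundant in the nervous system that lowers messages through pairing of its seed with sites mostly in the 3′ UTR. Its mature sequence is shown because it separates the backgrounds in which the RA fall was read. It comes from RefSeq (GRCh38.p14), where 2 genes encode the same 22 bases, MIR125B1 on the minus strand at chr11:122099809-122099830 and MIR125B2 on the plus strand at chr21:16590253-16590274, and capitals mark the seed, bases 2 to 8.
hsa-miR-125b-5p: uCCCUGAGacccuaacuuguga

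The probes carry Illumina IDs that neither the files nor the reference tables link to gene names. No gene, pathway or cell type marker could therefore be read, the cell line was not checked against markers, and the members are described by their levels and differences. Levels below are log2 intensities after normexp background correction (offset 50) and quantile normalization of the scanner values. A difference of 1 on this scale is a 2-fold change, and the offset makes the differences of dim probes too small. The arrays' mean scanner intensities lay between 617.8 and 1134.2. Replicates correlated with r of 0.978 to 0.997 across probes, and no pair of arrays was identical. Precision is limited by having 3 arrays in a group.

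Averaged over the 68 members, the level on single arrays ran from 8.36 to 8.51 in the 4 groups with RA, from 9.31 to 9.41 in the day 2 groups without RA, and from 9.20 to 9.26 in scrambled arrays on day 4, with OE arrays on day 4 reaching at most 9.08. The group means with RA were 8.38 ± 0.02 in scrambled, 8.46 ± 0.04 in OE, 8.44 ± 0.03 in KD and 8.44 ± 0.03 in OE+KD (SD, n = 3 each). Without RA they were 9.33 ± 0.02 in scrambled and 9.37 ± 0.04 in OE on day 2, and 9.23 ± 0.03 and 9.03 ± 0.05 on day 4 (SD, n = 3 each). No array with RA reached the lowest array without RA. Among the groups with RA, every OE, KD and OE+KD array lay above every scrambled array, and single members moved both ways. The mean over all probes tested, which quantile normalization holds nearly fixed, was 9.42 or 9.43 on each array. Scrambled and OE arrays on day 2 chose the members, so their part of this order is a description. The KD, OE+KD and day 4 arrays took no part in the RA and OE limits of the rule, although all 8 groups entered its brightness limit. ILMN_26219 alone reached that limit only through one of these, OE on day 4 (8.85 in log2 of the authors' values, against at most 6.80 in the groups of the other limits), so its differences from OE on day 4 are given below with no test.

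The falls that chose the members ranged widely. In scrambled arrays the RA difference ran from -3.32 to -0.45 with a median of -0.84, and in OE arrays from -2.45 to -0.45 with a median of -0.82. The limit of -0.7 applied to the authors' values, not to these values with an offset. At least a 2-fold fall was seen at 18 members in scrambled and 20 in OE arrays. All 68 were called lower in each of these fits (limma, adjusted p under 0.05), where 10.1% and 11.6% of the 10691 probes tested were called lower. Nothing is read from those counts, since the rule used the same contrasts. The members nearest to the limits had authors' differences of -0.706 in scrambled and -0.708 in OE arrays, and the nearest probes outside had -0.699 and -0.692. On the OE limit the nearest values were 0.397 inside and 0.401 outside.

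ILMN_3487 fell furthest of the 68 in both backgrounds. Its levels were 10.86, 10.77 and 10.91 in scrambled arrays without RA on day 2 and 7.55, 7.49 and 7.55 with RA, a difference of -3.32, or 9.98-fold. In OE arrays they were 10.97, 10.86 and 10.97 without RA and 8.55, 8.21 and 8.69 with RA, a difference of -2.45. The groups lay far apart in both backgrounds, and with RA the OE arrays were all above the scrambled ones. ILMN_19202 came next, with 9.53, 9.57 and 9.52 in scrambled arrays without RA and 7.66, 7.80 and 7.69 with RA. In OE arrays it stood at 9.80, 9.96 and 9.82 without RA and 7.97, 8.20 and 8.16 with RA. Its 2 falls, of -1.82 and -1.75, were closer to each other than those of ILMN_3487.

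The arrays that the RA and OE limits did not use offer a further reading. RA-treated KD cultures on day 2 were set against scrambled cultures without RA on day 4. These groups differ in RA, in knockdown and in day, and the 3 cannot be told apart. Of the 68 members, 55 (80.9%) were called lower and 1 (1.47%) higher, against 21.8% and 20.4% of all probes tested (limma, adjusted p under 0.05 over the 10691 probes). The median difference was -0.64 over the members and -0.01 over all probes, and 19 members were at least 2-fold lower. For counts of at least 2-fold changes, here and below, the share over all probes was not computed. The middle of the members' distribution ran from -1.09 to -0.34 (quartiles). Set beside the RA difference that chose each member in scrambled arrays, the fall was larger at 27 members, and the 2 sets of differences, which share no array, had a Pearson r of 0.747 across the 68 members, or 0.582 without ILMN_3487, given as a description.

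In that comparison ILMN_3487 again had the largest fall. It stood at 11.47, 11.17 and 11.29 in the scrambled day 4 arrays and at 7.14, 7.19 and 7.37 in the KD arrays with RA. The difference was -4.07 (SE 0.108, 16.8-fold, limma adjusted p = 2.39e-20), and -5.08 in the authors' normalized table, to which no offset was added here. Both groups lay outside the day 2 scrambled levels, higher without RA and lower with RA and KD. ILMN_15660 followed, from between 9.86 and 10.06 in the scrambled day 4 arrays to 7.77, 7.64 and 7.84 with RA and KD, a difference of -2.22 (SE 0.125, limma adjusted p = 2.52e-13). Its scrambled arrays on day 2 had been at 9.46, 9.91 and 9.59 without RA and 8.07, 8.39 and 8.23 with RA, so every KD array with RA lay below every scrambled array with RA. ILMN_5889 was the single member called higher, by 0.26 (SE 0.092, limma adjusted p = 0.0248), and this call was lost under several settings, with a limma adjusted p of 0.159 after median scaling. Its levels were 8.25, 8.33 and 8.30 with RA and KD, near the 8.06, 8.33 and 8.32 of scrambled arrays without RA on day 2, and above the 7.44, 7.44 and 7.51 of scrambled arrays with RA.

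The same reading in the OE background, RA-treated OE+KD cultures on day 2 against OE cultures without RA on day 4, gave 50 members (73.5%) lower and 6 (8.82%) higher. Of all probes tested, 24.5% were lower and 23.2% higher. The median was -0.53 over the members and -0.01 over all probes. Median scaling moved the median of all probes to -0.26 and that of the members to -0.78, with 55 members lower and 6 higher where 48.4% and 11.0% of all probes were. The 2 comparisons share no array, and 41 members were called lower in both, which is 74.5% of the first list and 82.0% of the second. Over all probes tested, 1192 were lower in both, 51.2% and 45.5% of the 2 lists. Across the 68 members the 2 sets of differences had a Pearson r of 0.574, or 0.481 without ILMN_3487, given as a description. The quartiles were -0.98 and -0.23, and 16 members were at least 2-fold lower and 3 at least 2-fold higher. The fall was larger than the one that chose the member in OE arrays at 17 members. Called lower in the first reading and higher in the second were 3 members. ILMN_21261 was one of them, with -1.21 and 0.92 (limma adjusted p = 2.46e-10 and 3.09e-08). The share of all probes called in these opposite ways was not computed.

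ILMN_3487 was the largest fall here as well, from 10.57, 10.54 and 10.68 in the OE day 4 arrays to 7.54, 7.92 and 7.76 in OE+KD arrays with RA, a difference of -2.86 (SE 0.108, limma adjusted p = 6.04e-17). ILMN_26219 was second, from 9.36, 9.35 and 9.04 to 6.81, 6.88 and 6.95, a difference of -2.37, and -3.73 in the authors' normalized table. This is a description, since the high OE day 4 arrays made it a member, and 49 of the other 67 members were called lower. The OE day 4 arrays were the highest of all 8 groups for ILMN_26219. The largest rise was at ILMN_138887, from 7.94, 7.85 and 7.84 to 9.55, 9.48 and 9.46, a difference of 1.62 (SE 0.205, limma adjusted p = 5.70e-07). ILMN_13059 rose from 7.47, 7.55 and 7.70 to 9.06, 8.67 and 8.64, a difference of 1.22 (SE 0.196, limma adjusted p = 1.71e-05). For both of these the OE day 4 arrays were the lowest of all 8 groups, below every array with RA.

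4 members were called lower in neither reading. For 3 of them, ILMN_138887, ILMN_13059 and ILMN_3117, OE+KD with RA was called higher than OE on day 4. The fourth, ILMN_12334, had differences of -0.06 and 0.00 in the 2 readings (limma adjusted p = 0.615 and 0.974), against RA differences of -0.82 and -0.72 on day 2. Its levels were 8.55, 8.42 and 8.53 in scrambled arrays without RA on day 2 but 7.91, 7.85 and 7.85 on day 4, close to the 7.71, 7.63 and 7.70 of scrambled arrays with RA on day 2. These 4 were singled out after their values were seen, and the share of all probes lower in neither reading was not computed.

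The members were chosen for a small OE difference on day 2, and the same comparison was made on day 4. On day 4 without RA, OE lay below scrambled at 24 members (35.3%) and above at 11 (16.2%), where 25.3% and 26.2% of all probes tested were called lower and higher (limma, adjusted p under 0.05). The median was -0.13 over the members and 0.01 over all probes. The sign of this median depends on the scaling. With median scaling it was 0.00 for the members and 0.13 for all probes, with 19 members lower and 15 higher where 16.1% and 35.6% of all probes were. Under both scalings the median of the members lay below that of all probes. At least 2-fold, 8 members were lower and 1 was higher.

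ILMN_21261 had the largest fall with OE on day 4, from 9.66, 9.77 and 9.71 in scrambled to 7.30, 7.47 and 7.73 in OE arrays, a difference of -2.21 (SE 0.097, limma adjusted p = 3.10e-15) and -3.09 in the authors' normalized table. On day 2 without RA its arrays had been at 10.36, 10.21 and 10.20 in scrambled and 9.98, 9.87 and 10.02 in OE, and with RA at 9.21, 9.03 and 9.23 in scrambled and 8.82, 8.62 and 8.87 in OE. OE on day 4 was thus lower than any RA array of this probe. ILMN_138887 had a difference of -1.68 (SE 0.205, limma adjusted p = 2.74e-07), to 7.94, 7.85 and 7.84 from scrambled levels of 8.77, 9.92 and 9.96. The first scrambled day 4 array was low for ILMN_138887, and the call held when that array was left out.

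ILMN_26219 had the largest rise with OE on day 4, from 7.32, 7.27 and 7.28 to 9.36, 9.35 and 9.04, a difference of 1.96, again a description. Without it, 10 members were called higher. On day 2 it had been at 7.53, 7.51 and 7.62 in scrambled and 7.66, 7.78 and 7.71 in OE arrays without RA, and at 6.68, 6.97 and 6.64 and 6.98, 7.35 and 7.15 with RA. ILMN_14948 rose by 0.90 (SE 0.113, limma adjusted p = 4.24e-07), from 7.95, 7.75 and 7.77 to 8.91, 8.49 and 8.78. Neither group overlapped the other for these 2 probes.

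With RA and KD in both groups, few probes were called when OE was added, among the members and among all probes. OE+KD against KD gave 4 members (5.88%) lower and 5 (7.35%) higher, against 5.24% and 3.59% of all probes tested, and the counts are small. The differences ran from -0.57 to 0.50 with a median of -0.01 (0.01 over all probes). ILMN_29694 fell by 0.57 log2 units (SE 0.131, limma adjusted p = 0.00574), from 8.06, 7.83 and 7.98 with KD to 7.48, 7.47 and 7.21 with OE+KD. ILMN_3066 fell by 0.47 (SE 0.082, limma adjusted p = 0.000423), from 10.95, 10.82 and 10.96 to 10.40, 10.39 and 10.52. For both, the OE+KD arrays lay nearer than the KD arrays to the scrambled arrays with RA, which were at 7.29, 7.08 and 6.94 for ILMN_29694 and 10.36, 10.28 and 10.33 for ILMN_3066.

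ILMN_3487 rose by 0.50 in the same comparison (SE 0.108, limma adjusted p = 0.00310), from 7.14, 7.19 and 7.37 to 7.54, 7.92 and 7.76, and by 0.94 in the authors' normalized table. ILMN_11318 rose by 0.48 (SE 0.089, limma adjusted p = 0.000822), from 9.10, 9.15 and 9.13 to 9.58, 9.70 and 9.54. The groups did not overlap for either probe. With the replicate number as a block the counts were 8 lower and 8 higher, where 7.42% and 5.65% of all probes tested were called.

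The arrays outside the RA and OE limits were used to test whether the joint change in RA, knockdown and day differed between backgrounds. The value tested was the change in OE arrays minus that in scrambled arrays. It was called positive, a smaller fall or a rise in OE, at 23 members (33.8%) and negative at 9 (13.2%), where 13.2% and 13.4% of all probes tested were called (limma, adjusted p under 0.05). With median scaling, which moved the median of all probes to -0.17, the split of the members was 14 positive and 12 negative, while 6.79% of all probes tested were called positive and 22.5% negative. The 23 had median differences of -0.89 in scrambled and -0.18 in OE arrays, the 9 negative ones -0.21 and -0.88, and the 36 not called -0.67 and -0.64. By arithmetic this difference equals OE+KD minus KD with RA, less OE minus scrambled on day 4 without RA. It thus holds the day 4 OE difference with its sign reversed, so overlap with that comparison is built in. Of the 23, 20 (87.0%) were also called lower with OE on day 4, as were 93.2% of all probes called positive. Of the 9, 7 were also called higher with OE on day 4. The matching share over all probes was not computed.

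ILMN_21261 and ILMN_138887 had the largest positive differences, 2.13 (SE 0.137, limma adjusted p = 3.39e-11) and 1.66 (SE 0.290, limma adjusted p = 0.000142). ILMN_26219 had a difference of -2.11, which rests on the arrays that made it a member and is given with no test, and without it 8 members were called negative. ILMN_14948 had the next largest negative one, -1.22 (SE 0.160, limma adjusted p = 3.80e-06). In all 4 the OE day 4 group stood apart from the scrambled day 4 group, as their levels above show, while OE+KD minus KD was not called for any of them (limma adjusted p = 0.665, 0.977, 0.446 and 0.0829).

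Comparisons that share arrays with the rule are given as values only, since the choice of members moves them. With RA on day 2 the members' OE minus scrambled differences ran from -0.42 to 0.95 with a median of 0.07, the highest being ILMN_3487. KD minus scrambled ran from -0.68 at ILMN_16587 to 0.85 at ILMN_29694 with a median of 0.02, and OE+KD minus OE from -0.74 to 0.48 with a median of -0.02. Day 4 minus day 2 without RA had a median of -0.09 in scrambled arrays, from -0.70 to 0.48, and of -0.29 in OE arrays, from -2.46 at ILMN_21261 to 1.53 at ILMN_26219. The quartiles were -0.30 and 0.16 in scrambled arrays and -0.48 and -0.08 in OE arrays, so the extremes in OE arrays come from few members.

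Among themselves the members followed a shared profile to different degrees. The correlation of each member's 8 group means with the mean profile of the other 67 had a median of 0.912 and ran from 0.171 to 0.982, with 38 members over 0.9 and 4 under 0.5. ILMN_17013 and ILMN_28432 were most like the rest, with 0.982 and 0.980, and ILMN_138887 and ILMN_17048 least, with 0.171 and 0.395. The shared part of these profiles includes the falls that chose the members. By mean level the members spread over most of the range of the probes tested, from the 8.97th to the 93.0th percentile with a median of 39.4. Of the 68, 53 lay above the median of the array on all 24 arrays.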

How the data were processed

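Expression was measured on 24 single-channel Illumina arrays. The scanner table holds linear intensity values as deposited, with 14.3% to 17.6% below 0 on each array, so a background had been subtracted. The normalized table holds intensity values that the authors normalized by an unstated method, with values under 20 standing at 20. Each of its 24 columns correlated best with its own scanner column. The authors' fold changes are log2, per the file headers. Scanner software and array version are unstated, and no detection p-value was used.

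The normalized table was used to apply the membership rule. For all differences, the normexp correction (offset 50) was applied to scanner values, then quantile normalization, and the log2 values were fitted with limma 3.58.1 (R 4.3.3), 1 mean for each of 8 groups over 24 arrays with 16 residual degrees of freedom. Tables were made with Python 3.11.15 and pandas 2.3.3. Testing required a level above the array's median on every array of some group, met by 10691 probes (51.9%) and all 68 members. All 68 also passed when the day 2 groups without RA were ignored. Above the array median on all 3 arrays were 60 members in the KD group with RA, 59 in the OE+KD group, 68 in the scrambled and 64 in the OE group on day 4. P-values were adjusted by Benjamini-Hochberg over all probes tested, two-sided. Members, lists and tests were chosen with earlier results of these data known. Named probes are the 2 largest falls and 2 largest rises among called members in each comparison, plus the 2 most and 2 least like the mean profile, except where the text says otherwise. Counts without ILMN_26219 were added after seeing the data.

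Same-numbered arrays of the groups tested deviated together in 10 of 12 pairs at r over 0.1 (-0.04 to 0.29). Arrays that chose the members and arrays tested did so by r = 0.246 on average over 48 same-numbered pairs (-0.08 to 0.71). The tested arrays are thus not fully independent of the choice. On simulated data for RA and KD against scrambled on day 4 (20589 probes, 10329 tested), 70.0% of differences of 0.5 and 99.0% of differences of 1 were recovered, with 10 false among 179 calls. Only brighter probes were changed there, 100 at each size and in the KD group alone, with noise independent between arrays. These rates therefore do not cover dim members, arrays that deviate together or comparisons with many calls. Alternatives were other scalings, background corrections, filters, array weights, a replicate block, smaller fits and leaving out arrays. Gene lists and cell type markers planned for this work were not run, since no probe could be paired with a gene.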

Additional observations from a re-analysis of the deposited data

Results flagged for a closer look

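The change between groups without RA on day 4 and groups with RA and KD on day 2 differed between OE and scrambled arrays at 32 of the 68 members by the test of the difference itself (limma, adjusted p under 0.05). It was positive at 23 and negative at 9, ILMN_26219 included, where 13.2% and 13.4% of all probes tested were called. Median scaling gave 14 positive and 12 negative, against 6.79% and 22.5% of all probes. Taken as OE minus scrambled, the largest positive differences were ILMN_21261 at 2.13 log2 and ILMN_138887 at 1.66. Apart from ILMN_26219, the largest negative one was ILMN_14948 at -1.22. ILMN_26219 had -2.11, but it is a member only because the OE day 4 arrays in this difference are bright, so it is a description. RA, knockdown and day cannot be told apart in these groups. By arithmetic the difference also holds OE minus scrambled on day 4 without RA, with its sign reversed, so it is not separate from that comparison.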

How the results depend on the processing

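The number of members was 48 to 99 under the other limits, 54 with the limits applied to the normexp and quantile values (42 of them shared with the 68), and 62 to 76 when any 1 of the 12 arrays of the rule was left out, an alternative added after seeing the data. Leaving out any 1 array gave 52 to 56 members lower and 0 to 1 higher for KD with RA against scrambled on day 4. Of all probes tested, 17.5% to 21.2% were then lower and 16.9% to 20.3% higher. For OE+KD with RA against OE on day 4 it gave 44 to 49 lower and 6 higher (20.5% to 22.3% and 19.7% to 21.6% of all probes). For OE on day 4 it gave 21 to 23 lower and 10 to 11 higher (22.3% to 24% and 22.9% to 24.9% of all probes). For OE+KD against KD it gave 3 to 5 lower and 3 to 7 higher (3.27% to 4.79% and 2.12% to 2.93% of all probes). The difference between backgrounds was negative at 8 to 11 members and positive at 18 to 24. Of all probes, 10.9% to 14% were then negative and 11.3% to 13.5% positive. The count of 5 higher for OE+KD against KD was 3 without replicate 1 of OE+KD and 7 without replicate 2 of OE+KD (2.48% and 2.35% of all probes). Members called higher for KD with RA against scrambled on day 4 were 0 with median scaling, a stricter filter or no filter on dim probes, in place of 1. Of all probes, 13.6%, 22.1% and 9.92% were called higher under these settings, in place of 20.4%. The stricter filter removed ILMN_5889, the member called higher otherwise, so it was not tested there. For OE+KD against KD, median scaling gave 3 higher (1.29% of all probes), the stricter filter, which kept 45 members, 1 lower (6.71%), array weights 7 lower (7.17%), and the replicate block 8 lower and 8 higher (7.42% and 5.65%), where 5.24% and 3.59% of all probes were called otherwise. Median scaling gave 14 positive differences between backgrounds in place of 23 (6.79% of all probes in place of 13.2%). The cause was not tested. The pairing rests on replicate numbers in the titles, and every pair was over r = 0.1 for KD with RA against scrambled on day 4 and for OE on day 4 alone; the block changed no other count of members by over 1.5 times. No named tested difference changed sign under any setting run, and ILMN_5889 alone lost its call, among others without replicate 1 or 3 of scrambled on day 4 (limma adjusted p = 0.0594 and 0.104) or replicate 2 or 3 of KD (0.0755 and 0.0506). Of all probes called, the share called lower went with median scaling from 51.6% to 65.2% for KD with RA against scrambled on day 4, from 59.3% to 74.3% for OE+KD against KD, from 51.4% to 81.5% for OE+KD with RA against OE on day 4, from 49.1% to 31.1% for OE on day 4, and from 50.5% to 76.8% for the difference between backgrounds. Dim probes near the offset limit the size of falls.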

Other observations

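The first scrambled array of day 4 stood apart for a few members. At 6 of the 68 it lay at least 0.5 log2 below the mean of the other 2 arrays of its group, by 0.57 to 1.17, a limit set after the values were seen. ILMN_138887 was lowest in this respect, at 8.77 against 9.92 and 9.96, and ILMN_13059 stood at 8.27 against 9.41 and 9.23. All 6 were also called lower with OE on day 4, by -0.57 to -1.68 log2, and 4 of them were called higher in OE+KD with RA than in OE on day 4. Of all probes tested, 25.3% and 23.2% were so called in these comparisons. The residual SD of the members was 0.203 on that array, the highest of the 24, against 0.098 over all probes tested. Without that array, 56 members were called lower for KD with RA against scrambled on day 4 (18.3% of all probes). For OE on day 4, 22 were then lower and 10 higher (22.5% and 23.5% of all probes). The part of this array in those 6 probes' values was not tested further.

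The authors' deposited table of fold changes names scrambled without RA on day 2 as the baseline of its KD and its OE and KD columns. In the authors' deposited table the members had medians of 0.00 and 0.14 in these columns, whereas the authors' normalized intensities give -0.996 and -0.984 against that baseline and 0.0436 and 0.106 against scrambled with RA. Over all 20589 probes the columns of the authors' deposited table correlated at 0.524 and 0.561 with differences from the baseline in the header, and at 0.958 and 0.967 with differences from scrambled with RA.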
